A study of Mus musculus with 11 samples.

Results

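B-lineage transcripts were followed in a sorted mouse thymus fraction through 8 genes: the transcription factors Ebf1 and Pax5, the B-cell receptor chains Ighm, Cd79a and Cd79b, the surface protein Ms4a1 (CD20), and the adaptors Blnk and Bank1. All 8 were found by symbol in both deposited count tables, which list 53801 and 55471 genes. At postnatal day 7 all 8 had enough reads to be tested, and at postnatal day 0 only Ighm and Cd79b did. The transcripts fell into sets with different patterns. Ebf1, Pax5, Ms4a1 and Cd79a had few or no reads at day 0 and were lower in samples labelled Tcf7 F/F:Vav1-Cre than in Tcf7 +/+ at day 7. Ighm and Cd79b had reads in every library, and Ighm was lower in every mutant genotype than in its wild type. Bank1 moved the other way and was higher in samples labelled Tcf7 F/F:Vav1-Cre, and at day 0 it had more reads in the Bcl11b mutants than in +/+.

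The cells were thymocytes sorted by FACS as negative for CD24 and for the TCR β chain. Each age was measured as a table of its own. At postnatal day 0 there were 2 libraries of Bcl11b D/N440K, 2 of Bcl11b +/N440K and 2 of Bcl11b +/+, where N440K is an amino acid change in the transcription factor Bcl11b and D is an allele that the labels do not define. At postnatal day 7 there were 3 samples labelled Tcf7 F/F:Vav1-Cre, in which a floxed Tcf7 gene meets a Cre driven by the promoter of Vav1, and 2 of Tcf7 +/+. Vav1 is active in blood cells of all lineages, B cells included, so that this Cre is not confined to T cells. The labels do not say whether the Tcf7 +/+ mice carried Cre, or whether libraries of a group came from separate animals. The p-values therefore weigh group differences against the spread between these libraries, and may not carry over to animals.

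Libraries held 999381 to 1842717 counts over 17544 to 20480 genes with a read. Bcl11b counts were lower with N440K, at 152 and 204 normalised counts (CPM) in D/N440K, 185 and 225 CPM in +/N440K and 641 and 506 CPM in +/+. Tcf7 stood at 847, 658 and 694 CPM in samples labelled Tcf7 F/F:Vav1-Cre and at 552 and 594 CPM in Tcf7 +/+. These are counts over all exons and do not check a deletion of some of them. The Tcf7 +/+ pair differed more between its libraries (chi-square per degree of freedom 4.94) than the pairs of other groups (1.14 to 2.16).

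B cells develop in the bone marrow and fetal liver. Ebf1 and Pax5 specify the lineage and hold it, and among their targets is Cd79a, which with Cd79b forms the signalling part of the B-cell receptor around the heavy chain encoded by Ighm. Signals pass through Syk family and Src family kinases to Blnk, while Bank1 is an adaptor that binds the kinase Lyn. The thymus holds a small resident population of B cells, and thymocytes and plasmacytoid dendritic cells are known to transcribe the Ighm region without making a complete antibody. RNA of these genes in a sorted fraction can therefore come from B cells or from other cells.

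The stretches around the starts of Cd79a, Blnk and Bank1 are shown because these members gave different patterns at day 7, with Cd79a low in samples labelled Tcf7 F/F:Vav1-Cre, Bank1 high and Blnk varying between replicates. Each runs 5′ to 3′ on the gene's strand, 250 bases before to 50 bases after the start, from RefSeq on GRCm38.p6. Cd79a lies at chr7:24897247-24897546 on the plus strand, Blnk at chr19:40994172-40994471 on the minus strand and Bank1 at chr3:136326017-136326316 on the minus strand. Capitals mark a motif found by a search of both strands.
Cd79a: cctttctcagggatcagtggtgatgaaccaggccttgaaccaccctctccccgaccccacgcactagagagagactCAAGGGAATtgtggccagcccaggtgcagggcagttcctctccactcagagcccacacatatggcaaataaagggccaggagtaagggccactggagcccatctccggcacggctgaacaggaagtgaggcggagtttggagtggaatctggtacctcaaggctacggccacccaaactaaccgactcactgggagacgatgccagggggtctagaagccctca
Blnk: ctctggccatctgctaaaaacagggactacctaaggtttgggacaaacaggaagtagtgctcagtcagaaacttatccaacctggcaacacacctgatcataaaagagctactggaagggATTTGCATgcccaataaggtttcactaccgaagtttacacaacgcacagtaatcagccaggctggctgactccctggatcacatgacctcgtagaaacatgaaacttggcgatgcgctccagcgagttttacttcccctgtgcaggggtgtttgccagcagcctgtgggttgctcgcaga
Bank1: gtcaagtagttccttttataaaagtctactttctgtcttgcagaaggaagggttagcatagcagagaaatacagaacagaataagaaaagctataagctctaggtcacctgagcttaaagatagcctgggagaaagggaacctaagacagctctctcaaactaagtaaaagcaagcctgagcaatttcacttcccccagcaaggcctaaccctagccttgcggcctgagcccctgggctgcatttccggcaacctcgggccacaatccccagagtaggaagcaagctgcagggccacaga

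The capitals in Cd79a are CAAGGGAAT, the letters of the known Ebf1 site of the Cd79a (mb-1) promoter, which began 174 bases before the RefSeq start and was found in 0.244% of 32851 promoters. The capitals in Blnk are ATTTGCAT, the octamer bound by Oct factors and their B-cell coactivator Pou2af1, which began 130 bases before the start and was found in 1.74% of promoters. The Bank1 stretch held neither of these, nor the Ebf1 palindrome of TCCC and GGGA with 2 free bases between them (0.904% of promoters), nor CTTTGAT (3.73%), which is bound by TCF proteins. Pax5 and both Ebf1 promoters held none of these motifs either. A match is a description of these letters and not a site of binding.

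The first question was how much of each member's RNA the wild-type fractions held. Levels of different genes are given here per kilobase of exon, and gene positions are on GRCm38 (GENCODE M21). In Tcf7 +/+ at day 7 the order was Ighm at 234 ± 18.4 CPM per kilobase, Cd79b at 23.2 ± 6.15, Blnk at 11.4 ± 4.67, Cd79a at 7.35 ± 1.64, Ms4a1 at 3.60 ± 0.325, Pax5 at 2.61 ± 0.990, Bank1 at 2.33 ± 0.106 and Ebf1 at 0.984 ± 0.248 (SD, n = 2 each). Blnk and Cd79a overlapped within these SDs, as did Ms4a1 with Pax5 and Pax5 with Bank1. In Bcl11b +/+ at day 0 Ighm was again far above the rest, at 210 ± 4.24 CPM per kilobase, followed by Cd79b at 17.1 ± 2.90 and Cd79a at 3.68 ± 1.24 (SD, n = 2 each). The tables differ in age and were normalised apart, so the levels stand side by side with no test between them.

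Ebf1, the first factor of the B-cell programme (chr11:44617317-45008091, plus strand), was near absent at day 0. It had 0 and 0 reads in Bcl11b D/N440K, 0 and 1 in +/N440K, and 1 and 0 in +/+. At day 7 it had 3, 0 and 1 reads in samples labelled Tcf7 F/F:Vav1-Cre, against 14 and 20 reads in Tcf7 +/+. The groups did not overlap at day 7, where levels were 2.43, 0 and 0.556 CPM in samples labelled Tcf7 F/F:Vav1-Cre and 7.89 and 11.3 CPM in Tcf7 +/+. The log2 fold change was -3.40 ± 0.723 (SE) with an edgeR adjusted p of 0.00179. In a bulk fraction, fewer cells of a type and less RNA per cell cannot be told apart.

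Pax5, the factor of B-cell commitment (chr4:44524757-44710487, minus strand), had 0 reads in all 6 libraries of day 0. A count of 0 in each pair of libraries allows up to 1.40 CPM in D/N440K, 1.34 CPM in +/N440K and 1.37 CPM in +/+, by the limit of 3 counts over the group and for counting error only. At day 7 it stood at 7.28, 3.96 and 5.01 CPM in samples labelled Tcf7 F/F:Vav1-Cre, against 29.3 and 16.9 CPM in Tcf7 +/+. All 3 libraries of the first group were below both of the second, with a log2 fold change of -2.13 ± 0.371 (SE) and an edgeR adjusted p of 3.88e-04. Exons of Pax5 overlap 5730488B01Rik and Gm12462 on the opposite strand, and the strand of counting is not given in the sources used here, so reads of these genes cannot be told apart.

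Ms4a1, the B-cell surface protein CD20 (chr19:11249675-11266241, minus strand), also had 0 reads in all 6 libraries of day 0. At day 7 its levels were 8.09, 1.70 and 1.11 CPM in samples labelled Tcf7 F/F:Vav1-Cre, against 20.9 and 23.7 CPM in Tcf7 +/+. The first of the 3 stood well above the other two but below both Tcf7 +/+ libraries. The log2 fold change was -2.78 ± 0.482 (SE) with an edgeR adjusted p of 3.56e-04, and it was -3.92 without that first replicate.

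**Figure D1:**
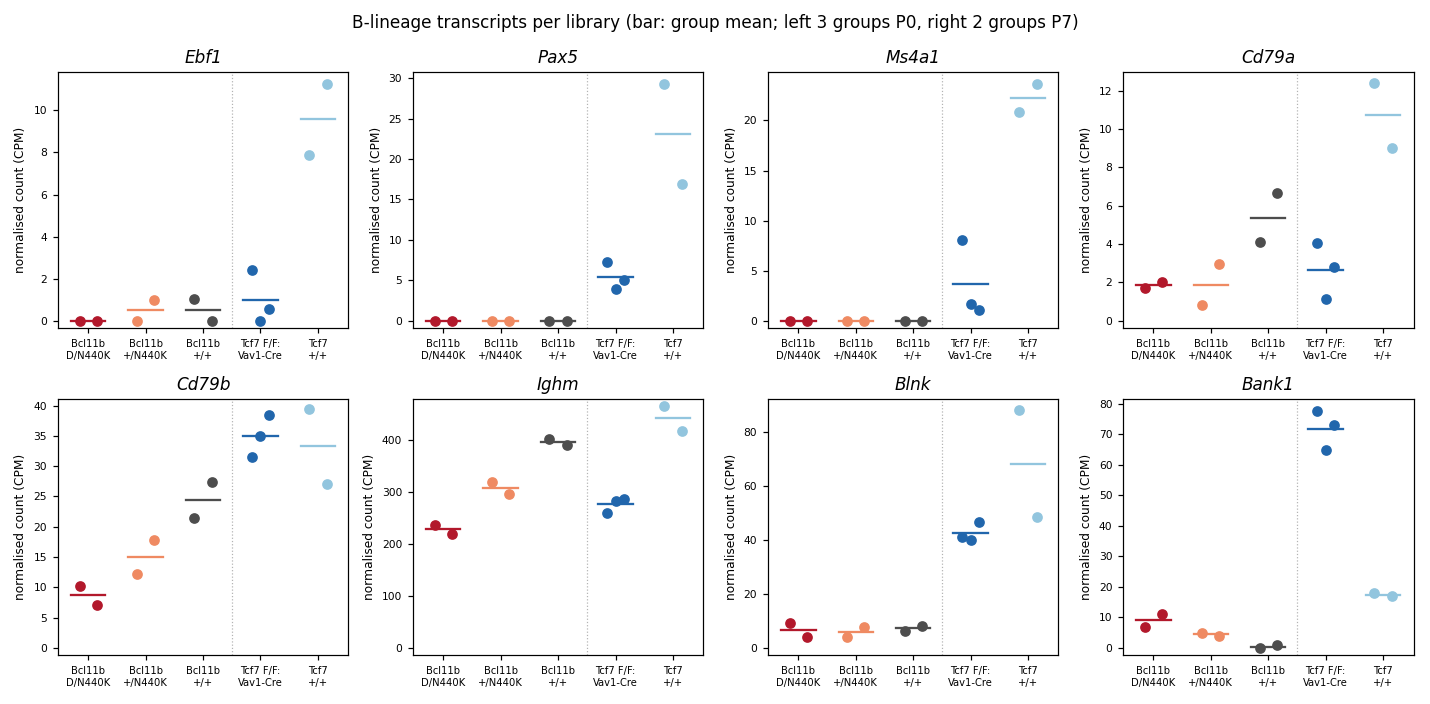
Normalised counts (CPM, vertical axis, a scale of its own for each gene) of the 8 B-lineage genes, with a point for each library and a bar at the group mean. Bcl11b D/N440K, +/N440K and +/+ at P0 are left of the dotted line, and samples labelled Tcf7 F/F:Vav1-Cre and Tcf7 +/+ at P7 are right of it. Pax5 and Ms4a1 are at 0 in all 6 libraries of P0, Ighm has 219 CPM or more in all 11, and Bank1 is highest in samples labelled Tcf7 F/F:Vav1-Cre.

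Cd79a, the Igα chain of the receptor (chr7:24897381-24902197, plus strand), had few reads at day 0: 2 and 2 in D/N440K, 1 and 3 in +/N440K, and 4 and 8 in +/+. These counts were too low to test with the filter used. The ratio of summed, depth-scaled counts was 0.338 for D/N440K over +/+, with an exact 95% interval of 0.0795 to 1.12 that includes no difference. At day 7 levels were 4.04, 1.13 and 2.78 CPM in samples labelled Tcf7 F/F:Vav1-Cre, against 12.4 and 9.02 CPM in Tcf7 +/+. The groups did not overlap, and the log2 fold change was -2.06 ± 0.511 (SE) with an edgeR adjusted p of 0.00639.

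At day 7, 7 of the 8 members were called at an edgeR adjusted p under 0.05, with 1 higher and 6 lower, where 23.2% of the 12366 genes tested were called, 12% higher and 11.1% lower. The median log2 fold change of the 8 was -1.37, beside -0.01 over all genes tested. Ebf1, Pax5, Ms4a1 and Cd79a passed the filter on low counts through the Tcf7 +/+ libraries: each reached the filter's 5.59 CPM in both of those and in at most 1 of the 3 samples labelled Tcf7 F/F:Vav1-Cre. These 4 could therefore enter the test only because they were high in 1 group, and the count of calls is a description of them.

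Cd79b, the Igβ chain that pairs with Cd79a (chr11:106311341-106314762, minus strand), was not called at day 7. It stood at 31.5, 35.0 and 38.4 CPM in samples labelled Tcf7 F/F:Vav1-Cre and at 39.4 and 27.1 CPM in Tcf7 +/+. The groups overlapped, and the log2 fold change was 0.08 ± 0.230 (SE, edgeR adjusted p = 0.839). Without the second Tcf7 +/+ replicate the sign turned, to -0.16. The difference between the changes of Cd79a and Cd79b was not tested.

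At day 0 Cd79b was 10.3 and 7.12 CPM in Bcl11b D/N440K, 12.2 and 17.8 CPM in +/N440K, and 21.5 and 27.4 CPM in +/+. No library of a mutant group reached a +/+ library. For D/N440K over +/+ the log2 fold change was -1.47 ± 0.376 (SE, edgeR adjusted p = 0.00466), and for +/N440K over +/+ it was -0.74 ± 0.332, which was not called (edgeR adjusted p = 0.179). The call for D/N440K rested on few reads, 19 against 54 over the pairs, and was lost with DESeq2 (adjusted p = 0.178), without the second +/+ replicate (edgeR adjusted p = 0.101) and without the second D/N440K replicate (edgeR adjusted p = 0.0651). Between D/N440K and +/N440K it was not called, at -0.74 (edgeR adjusted p = 0.717).

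Ighm, the constant region of the μ heavy chain (chr12:113418558-113422730, minus strand), was the member with the most reads in every library. At day 0 it stood at 237 and 219 CPM in Bcl11b D/N440K, 318 and 295 CPM in +/N440K, and 402 and 390 CPM in +/+. The 3 genotypes did not overlap and were ordered, with D/N440K lowest and +/+ highest. The log2 fold change was -0.79 ± 0.0939 (SE) for D/N440K over +/+, with an edgeR adjusted p of 2.57e-08. For +/N440K over +/+ it was -0.37 ± 0.0888 (SE, edgeR adjusted p = 0.00393), and that call was lost with DESeq2 (adjusted p = 0.147). Both comparisons share the 2 libraries of Bcl11b +/+.

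Between the mutant genotypes, Ighm was lower in D/N440K than in +/N440K by a log2 fold change of -0.43 ± 0.0971 (SE, edgeR adjusted p = 0.0252). This call did not stand with DESeq2 (adjusted p = 1), and leaving out a single library gave edgeR adjusted p values of 0.190 without the first +/N440K replicate, 0.0945 without the first D/N440K replicate and 0.307 without the second. Ighm was the 1 member of the 2 tested that was called in this comparison, as lower, where 0.532% of 10910 genes were called (0.284% higher and 0.247% lower). For +/N440K over +/+ it was also the 1 member called, where 10.1% of all genes were called (4.79% higher and 5.3% lower). For D/N440K over +/+ both members were called lower, where 12.4% of all genes were called (6.1% higher and 6.31% lower). The medians of the 2 tested members were -1.13 for D/N440K over +/+ and -0.55 for +/N440K over +/+, beside 0.001 and 0.002 over all genes.

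**Figure D2:**
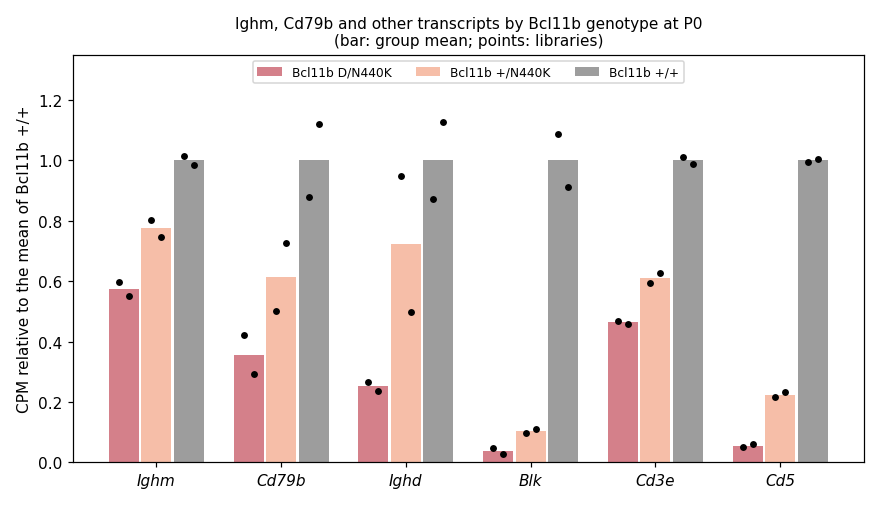
Levels at P0 relative to the mean of Bcl11b +/+ (vertical axis, CPM over that mean, from 0) for Ighm, Cd79b, Ighd, Blk, Cd3e and Cd5. Bars are group means and points are the 2 libraries of Bcl11b D/N440K, +/N440K and +/+ in that order. Ighm is lowest in D/N440K (219 to 237 CPM) and highest in +/+ (390 to 402 CPM), while the kinase Blk and the T-cell gene Cd5 show steeper steps in the same order.

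At day 7 Ighm stood at 260, 283 and 286 CPM in samples labelled Tcf7 F/F:Vav1-Cre, against 466 and 417 CPM in Tcf7 +/+. The groups did not overlap, and the log2 fold change was -0.67 ± 0.120 (SE, edgeR adjusted p = 5.25e-04). Across all 11 libraries, centred within each table, the 5 genes whose log2 CPM followed Ighm most closely among 10488 were Actn1 (Pearson r = 0.976), Cd5 (0.970), Cd6 (0.969), Tmem120b (0.966) and Cd3e (0.965). For Cd79b they were Elmsan1 (0.947), Prkd2 (0.941), Stx1a (0.933), Csrnp2 (0.928) and Tmc8 (0.924). These correlations are descriptions over libraries that fall into genotype groups. Cd3e and Cd5, both of the T-cell surface, were taken from these 5 genes, so their shared order of genotypes with Ighm follows from that choice. At day 0 Cd3e was at 235 and 231 CPM in D/N440K, 299 and 315 CPM in +/N440K, and 508 and 497 CPM in +/+. Of 12 T-cell genes, 1 was called higher in D/N440K than in +/N440K and 2 lower, where 0.284% and 0.247% of all genes were. The 1 higher was Cd3g, with 371 reads over D/N440K and 270 over +/N440K.

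Blnk, the adaptor that couples Syk to downstream enzymes (chr19:40928927-40994535, minus strand), had 11 and 4 reads in Bcl11b D/N440K, 5 and 8 in +/N440K, and 6 and 10 in +/+. The ratio of summed counts was 0.951 for D/N440K over +/+ (exact 95% interval 0.438 to 2.05), so no difference was detectable at this depth. At day 7 it stood at 41.2, 40.1 and 46.7 CPM in samples labelled Tcf7 F/F:Vav1-Cre, against 87.9 and 48.5 CPM in Tcf7 +/+. The second Tcf7 +/+ library was close to the first group. The log2 fold change of -0.67 ± 0.234 (SE) was called (edgeR adjusted p = 0.0466), but without the first Tcf7 +/+ replicate it was -0.18 (edgeR adjusted p = 0.590), and DESeq2 gave an adjusted p of 0.101. The first Tcf7 +/+ library was also above the second in the summed level of 11 plasmacytoid dendritic cell genes (2890 and 2080 CPM) and of 9 MHC class II genes (1161 and 798 CPM). The same held for 12 myeloid genes (912 and 598 CPM) and 22 mature B-cell genes (1351 and 1110 CPM). The first library was below the second in the sums of lists of T-cell, type 17 γδ T-cell, early B-cell, plasma-cell and immunoglobulin constant-region genes. The part of any of these cells in the Blnk value was not tested.

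Bank1, the Lyn-binding adaptor (chr3:136053363-136326066, minus strand), was the member called higher at day 7. It stood at 77.6, 65.0 and 72.9 CPM in samples labelled Tcf7 F/F:Vav1-Cre, against 18.0 and 16.9 CPM in Tcf7 +/+. The groups were far apart, with a log2 fold change of 2.03 ± 0.222 (SE, edgeR adjusted p = 3.23e-06) that lay between 1.98 and 2.11 under every alternative run. At day 0 it had 8 and 11 reads in Bcl11b D/N440K, 6 and 4 in +/N440K, and 0 and 1 in +/+, too few to pass the filter. The ratio of summed counts was 19.3 for D/N440K over +/+ (exact 95% interval 3.07 to 801) and 9.75 for +/N440K over +/+ (1.39 to 423). With no filter, the log2 fold change was 3.98 ± 0.965 for D/N440K over +/+ (SE, edgeR adjusted p = 3.45e-04) and was not called for +/N440K over +/+ (edgeR adjusted p = 0.0713).

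**Figure D3:**
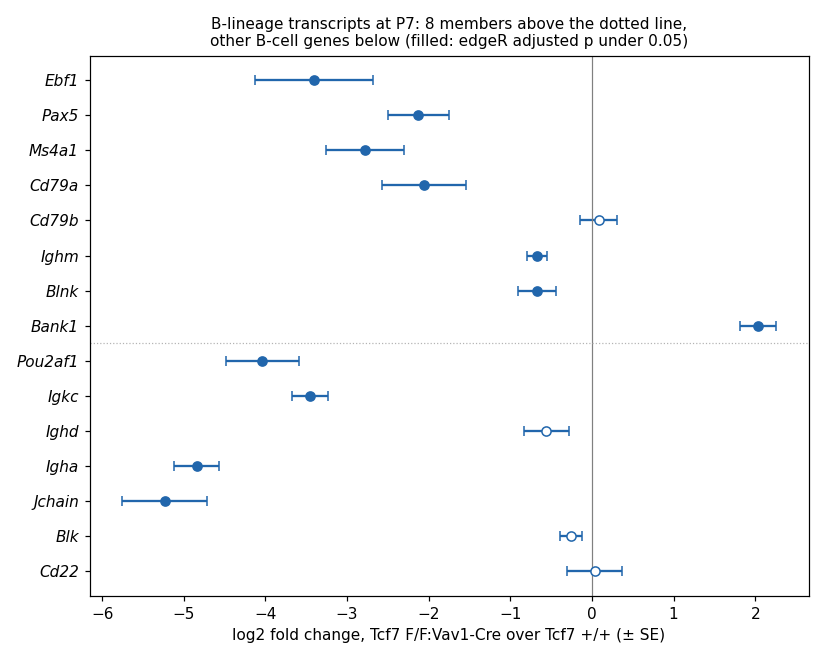
Log2 fold changes (horizontal axis, samples labelled Tcf7 F/F:Vav1-Cre over Tcf7 +/+, with SE) at P7 for the 8 members above the dotted line and for 7 other B-cell genes below it. Filled points passed an edgeR adjusted p under 0.05. Bank1 at 2.03 lies right of 0, Cd79b at 0.08 and Cd22 at 0.03 lie near 0, and Jchain at -5.24 lies far to the left.

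Other B-cell genes were set beside the members, and the cells that their RNA came from were not tested. Pou2af1, the coactivator at octamers, was lower in samples labelled Tcf7 F/F:Vav1-Cre than in Tcf7 +/+ (-4.04, edgeR adjusted p = 3.00e-06). It had 6 reads over the first group and 77 over the second, and passed the filter on low counts through Tcf7 +/+. Of 20 tested genes on a list of mature B-cell markers, 2 were higher and 8 lower in samples labelled Tcf7 F/F:Vav1-Cre, where 12% of all genes tested were higher and 11.1% lower. The median of the list was -0.41, beside -0.01 over all genes. Cxcr5 was among those higher, with a ratio of summed counts over Tcf7 +/+ of 12.8 (exact 95% interval 10.4 to 15.8). For Cd83, also on the list, this ratio was 2.42 (1.98 to 2.99). Both intervals cover counting error only and not the spread between libraries. Cd83 was called higher with no filter (edgeR adjusted p = 0.00577). Cd22, which mature B cells carry and dendritic cells can express, was among those not called, at 12.4 to 23.9 CPM in samples labelled Tcf7 F/F:Vav1-Cre and at 11.8 and 23.1 CPM in Tcf7 +/+.

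Light-chain RNA was set beside Ighm, since a B cell with a complete receptor carries both chains. Igkc, the κ constant region (chr6:70726435-70726966, plus strand), had 3 and 2 reads in Bcl11b D/N440K, 0 and 2 in +/N440K, and 3 and 5 in +/+. Ighm had 277 and 215 reads in D/N440K, 390 and 299 in +/N440K, and 393 and 470 in +/+. Igkc made up 0 to 1.07% of the sum of both genes in the 6 libraries. The lower Ighm of the mutants at day 0 went with Igkc counts near 0 in every genotype, mutant and wild type. Vpreb1, part of the surrogate light chain of B-cell precursors, had 2 and 2 reads in Bcl11b +/+ and 0 in the other 9 libraries, and Vpreb1 exons overlap Top3b on the opposite strand. Igll1, the other surrogate chain, had 1 read in the second Tcf7 +/+ library and 0 elsewhere.

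Rag1, Rag2 and Dntt, which T-cell and B-cell precursors share for receptor gene rearrangement, were lower at day 7 in samples labelled Tcf7 F/F:Vav1-Cre. Rag1 was 0.809, 1.13 and 0.556 CPM in samples labelled Tcf7 F/F:Vav1-Cre, against 327 and 399 CPM in Tcf7 +/+ (edgeR adjusted p = 1.87e-12). Over the first group Rag1, Rag2 and Dntt had 4, 0 and 0 reads, so they passed the filter on low counts through Tcf7 +/+. At day 0 Rag1 was 8.56 and 19.3 CPM in Bcl11b D/N440K, 2.45 and 0.987 CPM in +/N440K, and 210 and 216 CPM in +/+, lower in D/N440K (edgeR adjusted p = 2.79e-18) and in +/N440K (edgeR adjusted p = 2.67e-20) than in +/+. At day 0 Rag1 passed the filter on low counts through +/+. Its levels in +/+ at day 0 stood beside Igkc counts near 0.

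At day 7 Igkc was 12.9, 13.6 and 11.1 CPM in samples labelled Tcf7 F/F:Vav1-Cre, against 119.5 and 156.7 CPM in Tcf7 +/+. The log2 fold change was -3.46 ± 0.217 (SE, edgeR adjusted p = 4.53e-09). Igkc made up 4.73, 4.57 and 3.75% of the summed Igkc and Ighm reads in samples labelled Tcf7 F/F:Vav1-Cre, and 20.4 and 27.3% in Tcf7 +/+. Reads over 183 heavy-chain V segments summed to 4.85, 3.96 and 4.45 CPM in samples labelled Tcf7 F/F:Vav1-Cre, against 54.7 and 75.5 CPM in Tcf7 +/+, and to 1.02 to 7.13 CPM at day 0. Reads over 160 κ V segments summed to 2.43, 1.13 and 5.01 CPM in samples labelled Tcf7 F/F:Vav1-Cre, against 33.8 and 71.6 CPM in Tcf7 +/+, and to 0 to 1.63 CPM at day 0. The step was smaller for 3 V segments of λ, the other light chain. They summed to 6.47, 11.87 and 7.23 CPM in samples labelled Tcf7 F/F:Vav1-Cre, against 30.99 and 27.05 CPM in Tcf7 +/+. At day 0 they summed to 0 to 1.66 CPM. Some V segments are close copies of each other, so counts of single segments are uncertain and the sums are given.

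**Figure D4:**
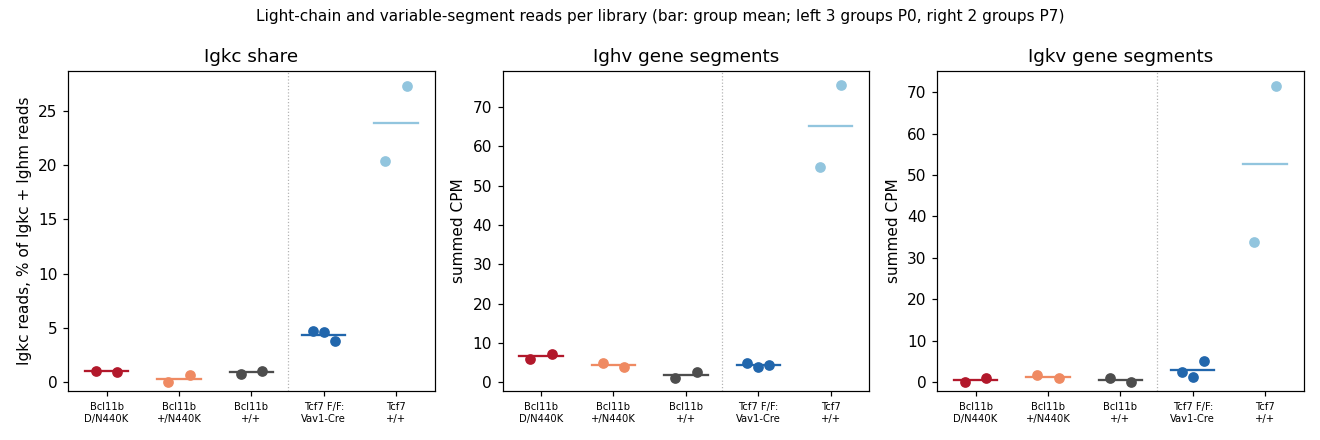
Left, Igkc reads as a percent of Igkc plus Ighm reads; middle and right, summed CPM over heavy-chain and κ V segments. Points are libraries and bars are group means, with P0 groups left of the dotted line. The 2 Tcf7 +/+ libraries stand alone at 20.4 and 27.3% Igkc, and the 6 libraries of P0 lie between 0 and 1.07%.

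Among other constant regions at day 7, Igha, the constant region of IgA, stood at 5.66, 3.96 and 2.23 CPM in samples labelled Tcf7 F/F:Vav1-Cre, against 116 and 104 CPM in Tcf7 +/+ (log2 fold change -4.84, edgeR adjusted p = 2.01e-09). At day 0 Igha lay between 32.6 and 46.5 CPM in all 6 libraries and was not called in any comparison of Bcl11b genotypes. The IgG constant regions had 0 reads in all 6 libraries of day 0 for Ighg1, Ighg2b, Ighg2c and Ighg3. In samples labelled Tcf7 F/F:Vav1-Cre, Ighg2b had 0, 1 and 1 reads and Ighg2c had 0, 0 and 1. In Tcf7 +/+, Ighg2b had 81 and 366 reads and Ighg2c had 182 and 20, so the libraries of this pair differed in which isotype led. Jchain, which joins IgM and IgA into polymers, had 2, 3 and 1 reads in samples labelled Tcf7 F/F:Vav1-Cre and 50 and 127 in Tcf7 +/+ (log2 fold change -5.24 ± 0.518, SE, edgeR adjusted p = 8.28e-07). Jchain was the 1 gene called of 6 tested on a plasma-cell list, where 23.2% of all genes tested were called. Igha, Jchain, Ighg2b and Ighg2c had few or almost no reads in samples labelled Tcf7 F/F:Vav1-Cre. They passed the filter on low counts through Tcf7 +/+, the group where they are high.

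**Figure D5:**
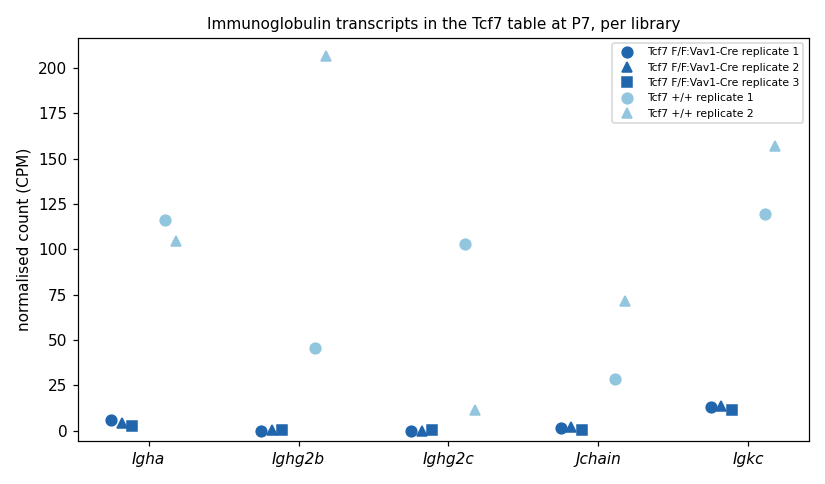
Normalised counts (CPM, vertical axis) of Igha, Ighg2b, Ighg2c, Jchain and Igkc at P7, with the 3 samples labelled Tcf7 F/F:Vav1-Cre left of the 2 of Tcf7 +/+ for each gene and a marker shape for each replicate. The Tcf7 +/+ replicates swap order between Ighg2b (45.6 and 206 CPM) and Ighg2c (103 and 11.3 CPM).

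Ighd, the δ constant region that is transcribed together with Ighm in mature B cells, was 6.85 and 6.11 CPM in Bcl11b D/N440K, 24.5 and 12.8 CPM in +/N440K, and 22.5 and 29.1 CPM in +/+. It was lower in D/N440K than in +/+ (-1.98 ± 0.409, SE, edgeR adjusted p = 3.91e-04) and was not called for +/N440K over +/+. At day 7 it was 12.1, 15.8 and 15.0 CPM in samples labelled Tcf7 F/F:Vav1-Cre and 23.7 and 19.2 CPM in Tcf7 +/+, which was not called (edgeR adjusted p = 0.159).

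The kinases and adaptors downstream of the B-cell receptor, which other blood cells share, included genes called higher and genes called lower. Blk, a Src family kinase of B cells and of type 17 γδ T cells, had 9.56 ± 3.44 CPM in Bcl11b D/N440K, 27.0 ± 2.35 CPM in +/N440K and 259 ± 32.2 CPM in +/+ (SD, n = 2 each). Its log2 fold changes were -4.70 ± 0.206 (SE, edgeR adjusted p = 1.35e-20) for D/N440K over +/+ and -3.26 ± 0.165 (SE, edgeR adjusted p = 1.77e-18) for +/N440K over +/+. Syk, Lyn and Plcg2, which act in the same signalling chain as Blnk, were higher in both mutant genotypes. For D/N440K over +/+ the log2 fold changes were 1.01, 0.75 and 0.95, with edgeR adjusted p values of 5.37e-08, 0.00895 and 1.35e-09. For +/N440K over +/+ they were 0.49, 0.64 and 0.67, with edgeR adjusted p values of 0.0109, 0.0388 and 5.05e-06, and Lyn was not called there with no filter (edgeR adjusted p = 0.0670). Cd81, a tetraspanin found on many cell types, was lower in both, at -1.50 (edgeR adjusted p = 9.64e-05) for D/N440K over +/+ and -1.05 (edgeR adjusted p = 0.00396) for +/N440K over +/+. Vav2 was lower for +/N440K over +/+ (-0.78, edgeR adjusted p = 0.00193). Of 20 tested genes of this pathway, 4 were higher and 2 lower in D/N440K (6.1% and 6.31% of all genes), and 3 were higher and 3 lower in +/N440K (4.79% and 5.3% of all genes).

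At day 7 Blk was 284, 305 and 304 CPM in samples labelled Tcf7 F/F:Vav1-Cre and 309 and 403 CPM in Tcf7 +/+, which was not called (edgeR adjusted p = 0.182), though without the first Tcf7 +/+ replicate it was (-0.43, edgeR adjusted p = 0.00370). Of the 22 tested pathway genes, 4 were higher and 4 lower, where 12% of all genes tested were higher and 11.1% lower. Their median was 0.18, beside -0.01 over all genes. Plcg2 (0.97, edgeR adjusted p = 7.42e-05) and Fcgr2b, an inhibitory Fc receptor of B cells and myeloid cells (1.49, edgeR adjusted p = 1.98e-05), were among those higher. Prkcb, a kinase of the path to NF-κB, was lower (-1.22, edgeR adjusted p = 1.52e-05).

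Markers of other cell types moved beside the members. At day 7, 5 of 9 tested myeloid genes were higher in samples labelled Tcf7 F/F:Vav1-Cre, where 12% of all genes tested were higher. The other myeloid genes were not called. The summed level of the 12 listed was 1254 to 1407 CPM in samples labelled Tcf7 F/F:Vav1-Cre against 598 to 912 CPM in Tcf7 +/+. Of 12 T-cell genes, 1 was higher and 7 were lower at day 7, where 12% and 11.1% of all genes tested were. Their sums were 1645 to 1840 CPM in samples labelled Tcf7 F/F:Vav1-Cre and 2486 to 2531 CPM in Tcf7 +/+. The sums of 9 MHC class II genes, which B cells share with dendritic cells, were 1212 to 1479 CPM in samples labelled Tcf7 F/F:Vav1-Cre and 798 to 1161 CPM in Tcf7 +/+. Of these 9, 3 were called higher and 2 lower, where 12% and 11.1% of all genes tested were. The median log2 fold change of the list was 0.44. Within that list H2-Ob, which is expressed mainly in B cells and some dendritic cells, was lower, at 4.04 to 14.5 CPM in samples labelled Tcf7 F/F:Vav1-Cre and 31.0 to 33.8 CPM in Tcf7 +/+ (edgeR adjusted p = 6.96e-04), while H2-Ab1 was higher (0.56, edgeR adjusted p = 0.0120).

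At day 0, 6.31% of all genes tested were lower in Bcl11b D/N440K and 5.3% in +/N440K, each against +/+. Of 12 tested T-cell genes, 8 were lower in D/N440K and 9 in +/N440K, and the others were not called. Their sums were 2016 to 2037 CPM in D/N440K, 2200 to 2293 CPM in +/N440K and 2913 to 3053 CPM in +/+. This is the order of Ighm, but the list holds Cd3e, Cd5 and Cd6, which were among the genes closest to Ighm. Sums of type 17 γδ T-cell genes had this order too, at 2571 to 2595, 2939 to 2955 and 4346 to 4948 CPM. Myeloid sums had the reverse order. Sums of the plasmacytoid dendritic cell genes were 850 to 1047 CPM in D/N440K, 799 to 1047 CPM in +/N440K and 1489 to 1513 CPM in +/+, and 4 of 10 tested were lower in each mutant genotype. Myeloid sums were 610 to 668 CPM in D/N440K, 510 to 577 CPM in +/N440K and 330 to 382 CPM in +/+. Of 14 tested genes of type 17 γδ T cells, 13 were lower in D/N440K and 12 in +/N440K. Of 4 tested erythroid genes, 3 were higher in D/N440K, where 6.1% of all genes tested were. The part of these cells in the values of Ighm, Cd79b and Bank1 was not tested.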

How the data were processed

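RNA was measured in sorted CD24-negative, TCRβ-negative mouse thymocytes in 11 libraries, grouped by the genotype in the sample titles. RNA was copied by a form of RamDA-seq, tagmented with Tn5 and amplified, per the labels' protocols. The authors deposited raw counts per Ensembl gene and separate CPM tables. Per the submitters' processing notes, the tools were fastp 0.20.0, STAR 2.7.3a, SAMtools 1.9, Picard 2.21.1, HTSeq 0.11.2 and edgeR, on mm10 (GRCm38). The strand of counting and the annotation release are not given in the sources used here. Reads without molecular identifiers are not independent molecules, so intervals and limits cover counting error only.

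Each count table was fitted by itself with edgeR 4.0.16 (R 4.3.3): filterByExpr with a minimum count of 10, TMM, a quasi-likelihood fit with 1 term for each group (3 residual degrees of freedom) and Benjamini-Hochberg adjustment over all 10910 or 12366 genes tested, two-sided, with a threshold of 0.05. CPM printed here are TMM-scaled. SE is the fold change over the square root of F. Genes below the filter are given as counts, with ratios and exact 95% intervals, as are Cxcr5 and Cd83 at day 7. Lists are described by counts and medians, with no test. Exon lengths and gene positions are from GENCODE M21, and promoters from RefSeq. The members and lists were chosen with earlier results of these data known. Genes named are the 8 members, Bcl11b, Tcf7, Blk, Igkc, Vpreb1 and Igll1, up to 4 called genes per list, and the 5 genes most like Ighm or Cd79b (average log2 CPM of 3 or more). Cd22, Ighd, Pou2af1, Lyn, Ighg1 and Ighg3 and the V segments, and called genes given for a comparison in which they were not among the first 4 of a list, were chosen after their values were seen.

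Alternatives were RLE scaling, no filter, a filter of CPM 5 in 2 libraries, DESeq2 1.42.0, only the groups compared, a replicate block, each library left out, limma 3.58.1 on log2 of the deposited CPM with a pseudocount of 1, and, chosen after seeing the data, edgeR on reads recovered from the deposited CPM. In each library 100% of these CPM values gave whole counts within 0.001, and the recovered reads gave the same 1353 calls for Bcl11b D/N440K over +/+ and 2863 for Tcf7 F/F:Vav1-Cre over Tcf7 +/+. Figures used Python 3.11.15 with matplotlib 3.10.9. The results of some genes covered by this rule are not reported here.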

Additional observations from a re-analysis of the deposited data

How the results depend on the processing

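Direction and call held under every alternative run for Bank1 and Ighm in samples labelled Tcf7 F/F:Vav1-Cre over Tcf7 +/+, and for Ighm in Bcl11b D/N440K over +/+. They also did for Ebf1, Pax5, Ms4a1 and Cd79a at day 7, but these passed the filter through Tcf7 +/+ alone, so this is no sign of stability. DESeq2 called 0 members for +/N440K over +/+, 1 for D/N440K over +/+ and 0 for D/N440K over +/N440K, with 357, 528 and 4 genes called in all. Leaving out a library gave 1 to 3 members for D/N440K over +/+, 0 to 1 for D/N440K over +/N440K and 6 to 7 for Tcf7. Genes called then numbered 726 to 945 for +/N440K over +/+, 25 to 63 for D/N440K over +/N440K and 1700 to 4612 for Tcf7, with the lowest without the first Bcl11b +/+, the first D/N440K and the third Tcf7 F/F:Vav1-Cre replicate, and the highest without the first Tcf7 +/+ replicate. With no filter 91 genes were called for D/N440K over +/N440K and 1606 for Tcf7. The cause was not tested.

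Cd79b in the Tcf7 comparison ranged from -0.16, with the sign turned, without the second Tcf7 +/+ replicate to 0.38 without the first. Libraries with the same replicate number did not deviate together: the correlations were -0.03, -0.03 and 0.01 at day 0, and -0.11 and 0.07 at day 7. With the number as a replicate block 0 members and 37 genes were called for D/N440K over +/N440K, with an edgeR adjusted p of 0.0582 for Ighm, and Blnk had 0.0616 at day 7, while 1 and 2 members were called for +/N440K and D/N440K over +/+. A lone library of a group was taken to vary like the others. Depth (999381 to 1842717 counts a library) limits genes of few reads. At day 0, 6 of the 8 members did not pass the filter, and Pax5 and Ms4a1 among them had 0 reads. The part of depth in this was not tested.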
